A study of Mus musculus with 3 samples.

Results

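The insulin-like growth factor (IGF) axis was described in cells of the mouse patellar tendon through 9 genes: the ligand gene Igf1, the receptor gene Igf1r, the binding-protein genes Igfbp2, Igfbp3, Igfbp4, Igfbp5, Igfbp6 and Igfbp7, and Pappa, which encodes a protease of binding proteins. Each was found by its symbol in the feature list shared by all 3 libraries, and the 9 were 9 of 32288 features. The cells came from wild-type mice, and haematopoietic and endothelial cells had been removed by fluorescence-activated sorting after collagenase digestion. Of the 3 libraries, 2 were from the age of 20 weeks (20-week replicates 1 and 2) and 1 was from the age of 2 weeks. The labels name no strain beyond wild type, no transgene and no treatment. They give neither the number of animals behind a library nor whether the 20-week libraries are of separate animals. P-values therefore rest on the spread between the 2 libraries of 20 weeks, which may be technical, and on variability pooled over genes. The single 2-week library adds no spread. Age cannot be told apart from anything else particular to that library, such as its preparation or depth. Words such as fell and rose below describe these libraries.

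IGF-1 and IGF-2 are secreted growth factors that signal mainly through the IGF-1 receptor, a tyrosine kinase that recruits insulin receptor substrates. IGF-binding proteins hold the ligands in the extracellular space, and can either keep them from the receptor or carry them to it. Proteases such as pappalysin-1, the product of Pappa, cut binding proteins and so free the ligand. In tendon, IGF-1 is known as a stimulus of cell division and collagen synthesis during growth and loading.

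Messenger RNA was counted cell by cell as unique molecular identifiers (UMIs), each standing for 1 captured molecule. After cell filters, 20-week replicate 1 held 606 cells with 1784396 UMIs, 20-week replicate 2 held 1007 cells with 5533883 UMIs, and the 2-week library held 4767 cells with 32637452 UMIs. Median UMIs per cell were 2822, 5120 and 6473 in the same order. Between each 20-week library and the 2-week library 1 cell barcode was shared, and the 20-week libraries shared 0. Levels are given in CPM, the UMIs of a gene per 1000000 UMIs of the same cells. The method reads 1 end of each transcript, so CPM was not divided by gene length. Capture efficiency may differ between genes, and this was not tested.

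The cells fell into 20 clusters, of which 12 took the name of a cell type from marker genes. Neither the 9 genes nor Igf2 were used to cluster or name the cells. Tenocyte-like cells had Scx, Fmod or Tnmd among the leading genes of their clusters. They numbered 242 and 119 in the 20-week replicates 1 and 2 and 669 in the 2-week library. Progenitor-like cells, led by Cd55, Pi16 and Cd248, numbered 125 and 223 at 20 weeks and 856 at 2 weeks. Mural-like cells, led by Acta2, Myh11 and Rgs5, numbered 43 and 39 at 20 weeks and 669 at 2 weeks. Most 20-week tenocyte-like cells were in cluster 6 (231 and 64 cells, against 18 at 2 weeks), and most 2-week ones in clusters 5 and 8 (445 and 206 cells, against 5 and 7 cells of cluster 5 and 6 and 48 cells of cluster 8 at 20 weeks), so the class compares largely different clusters at the 2 ages. Scx and Fmod were among the leading genes of clusters 5 and 6, and Tnmd among those of cluster 8 only. Cluster 6 was led by Spp1, Wif1 and Mt4. With IGF genes kept for clustering, an Spp1-led cluster of 228 and 109 cells at 20 weeks took no cell type name. Among the unnamed clusters, cluster 0 was led by Sfrp2, Ptn and Prlr, cluster 3 by Hmcn2, Smoc2 and Meox1, and cluster 9 by Mmp3, Cxcl14 and Lpl. Against its sort, 20-week replicate 2 also held 69 B-lineage-like cells, whose cluster took in 18 cells of the 2-week library that had 0 UMIs of the 6 B-lineage marker genes. Muscle fibre-like cells numbered 83 in 20-week replicate 2 and 14 in the 2-week library.

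The genes lie on 7 chromosomes of the GRCm38 assembly, the one that the build name mm10 denotes, by the GENCODE M21 annotation. Igfbp2 (chromosome 1, 72824503 to 72852474, plus strand) and Igfbp5 (chromosome 1, 72857932 to 72874884, minus strand) are neighbours with 5457 bases between their ends. Igf1 is on chromosome 10 (87858265 to 87937042, plus strand), Igfbp6 on chromosome 15 (102144362 to 102149511, plus strand) and Igfbp7 on chromosome 5 (77349240 to 77408041, minus strand). Igfbp3 (7206086 to 7213923, minus strand) and Igfbp4 (99041244 to 99054392, plus strand) are both on chromosome 11, Igf1r is on chromosome 7 (67952827 to 68233668, plus strand) and Pappa on chromosome 4 (65124174 to 65357509, plus strand). Igf1 overlaps the antisense gene Igf1os over 5117 bases, and Igfbp7 overlaps the antisense gene Gm34648 over 7085 bases and the end of Polr2b over 85 bases. The strand setting of the authors' counting is not given in the sources used here, so reads of these pairs cannot be told apart.

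The 250 bases before the transcription start are shown for the neighbours Igfbp2 and Igfbp5, for Igf1 and for Igfbp6, genes on which the age and class comparisons turn. They are RefSeq sequences of GRCm38.p6, 5′ to 3′ on the gene's own strand. Capitals mark matches, on either strand, to the TATA box TATAAA, the GC box GGGCGG, the E-box CACGTG or the AP-1 motif TGANTCA, which do not overlap here.
Igfbp2, chr1:72824230-72824479, plus strand: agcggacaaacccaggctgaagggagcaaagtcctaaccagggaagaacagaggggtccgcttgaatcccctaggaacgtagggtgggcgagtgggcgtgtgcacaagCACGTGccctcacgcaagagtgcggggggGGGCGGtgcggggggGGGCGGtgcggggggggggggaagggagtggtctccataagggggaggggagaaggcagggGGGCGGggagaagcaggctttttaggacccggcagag
Igfbp5, chr1:72874866-72875115, minus strand: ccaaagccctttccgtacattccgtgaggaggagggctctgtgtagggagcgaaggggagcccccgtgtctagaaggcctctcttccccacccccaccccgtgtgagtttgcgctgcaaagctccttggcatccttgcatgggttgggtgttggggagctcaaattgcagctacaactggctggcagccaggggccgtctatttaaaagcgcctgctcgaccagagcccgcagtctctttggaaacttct
Igf1, chr10:87860861-87861110, plus strand: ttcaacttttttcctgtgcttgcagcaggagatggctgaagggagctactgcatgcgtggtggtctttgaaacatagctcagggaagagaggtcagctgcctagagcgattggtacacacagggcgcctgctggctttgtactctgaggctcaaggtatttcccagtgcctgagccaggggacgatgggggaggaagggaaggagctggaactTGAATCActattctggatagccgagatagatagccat
Igfbp6, chr15:102143936-102144185, plus strand: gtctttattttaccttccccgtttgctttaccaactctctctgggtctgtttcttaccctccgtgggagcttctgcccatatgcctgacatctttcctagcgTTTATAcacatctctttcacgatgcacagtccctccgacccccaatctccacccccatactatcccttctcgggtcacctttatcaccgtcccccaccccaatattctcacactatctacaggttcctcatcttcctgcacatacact
The Igf1 window lies inside the annotated gene, before a start downstream of the first. The Igfbp2 window held 3 matches to GGGCGG and 1 to CACGTG, the Igf1 window 1 to TGANTCA, the Igfbp6 window 1 to TATAAA, and the Igfbp5 window held none of the 4. A second Igfbp2 window in the table, at chr1:72825137-72825386 and not shown, held 0 of GGGCGG, 0 of CACGTG and 1 of TGANTCA. Over 32851 promoter windows of the same length, 32.7% held GGGCGG, 6.02% CACGTG, 6.75% TGANTCA and 12.4% TATAAA. The GC content was 67.2% for Igfbp2, 58.8% for Igfbp5, 52.8% for Igf1 and 49.6% for Igfbp6, against a median of 52.4% over all windows. These matches describe the letters only.

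The balance of ligand and binding protein transcripts was lower at 20 weeks in both replicates, while the total of binding proteins lay on either side of the 2-week one. Over all cells, Igf1 and Igf2 together gave 2.89 and 6.89 UMIs per 100 UMIs of Igfbp2 to Igfbp7 in 20-week replicates 1 and 2, against 33.8 at 2 weeks. The summed binding proteins were at 10502 and 4792 CPM at 20 weeks, on either side of the 6415 CPM at 2 weeks. The ligands were at 304 and 330 CPM at 20 weeks, below the 2167 CPM at 2 weeks in both replicates. Igf2, the imprinted fetal growth factor, made up much of that gap, and Igf1 was 93.9% and 94.7% of the ligand UMIs at 20 weeks against 46.1% at 2 weeks. The ratio stood lower at 20 weeks in tenocyte-like cells (1.71 and 4.79, against 15.2 per 100), in progenitor-like cells (2.70 and 7.40, against 34.1), in cluster 0 (6.26 and 9.10, against 98.7), in cluster 3 (11.9 and 7.64, against 85.5) and in cluster 9 (5.99 and 13.4, against 64.7). In mural-like cells, where ligand transcripts were few (7 and 6 UMIs at 20 weeks, 438 at 2 weeks), the ratios of 0.778 and 2.21 lay on either side of 0.870. No test was run on the ratio.

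**Figure D1:**
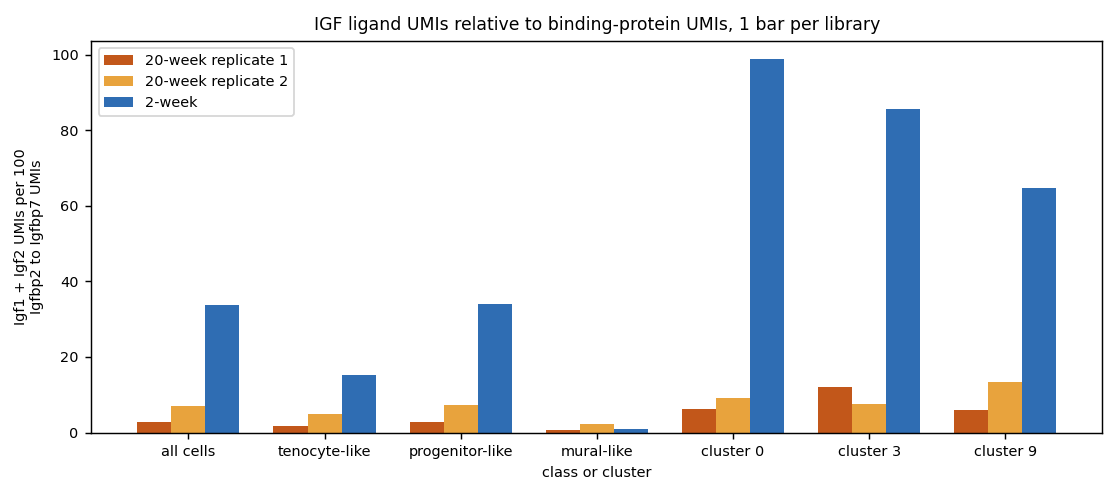
Igf1 and Igf2 UMIs per 100 Igfbp2 to Igfbp7 UMIs (y axis) in all cells, 3 classes and 3 unnamed clusters (x axis), with 1 bar for each library and no error bars. The 2-week bar is the highest in each set but that of mural-like cells, with 98.7 in cluster 0.

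Igf1, the ligand, was highest in an unnamed cluster in each library. At 2 weeks it was highest in cluster 0 at 2460 CPM, then in cluster 1 (progenitor-like) at 1763 CPM and cluster 9 at 1732 CPM, which did not differ beyond their counting intervals. It was far lower in chondrocyte-like cells (211 CPM), osteogenic-like cells (55.6 CPM) and mural-like cells (11.2 CPM). At 20 weeks replicate 1 had its highest Igf1 in cluster 0 (567 CPM) and cluster 3 (517 CPM), with overlapping intervals, and replicate 2 had it in cluster 9 (783 CPM), followed by the tenocyte-like cluster 8 (509 CPM) and cluster 1 (451 CPM), which overlapped. Clusters without a name gave 43.2% and 55.7% of all Igf1 UMIs at 20 weeks and 58.5% at 2 weeks.

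In progenitor-like cells Igf1 was at 320 and 450 CPM in the 20-week replicates, against 1507 CPM at 2 weeks, with both 20-week libraries below the 2-week one. The log2 fold change of 20 weeks over 2 weeks was -1.97 (SE 0.50), and edgeR's quasi-likelihood test gave an adjusted p of 0.253, so the class difference did not pass the threshold of 0.05. DESeq2 gave 0.0115 for the same sums. Within cluster 1 alone, which held most progenitor-like cells of each library, Igf1 was at 356 and 451 CPM at 20 weeks, against 1763 CPM at 2 weeks. There it fell (log2 -2.10, SE 0.61, edgeR adjusted p = 0.0216, DESeq2 0.0039), the only one of 7 members tested there that passed, where 3.54% of 9756 genes were called and 1.79% were called lower. By DESeq2 1.06% of genes with an adjusted p were called in that cluster. With a finer clustering its cells separated largely by age: a Cd55-led cluster held 15 and 6 cells at 20 weeks and 655 at 2 weeks, and a Stmn4-led one held 90 and 219 cells at 20 weeks and 4 at 2 weeks. In cluster 1 a 4-gene synovial lining list with Prg4, none of it at 0, summed to 1522 and 1345 CPM at 20 weeks, against 216 CPM at 2 weeks. A 4-gene erythroid list had 1 and 9 UMIs at 20 weeks, with 3 and 2 genes at 0, against 3955 UMIs (830 CPM) at 2 weeks, with 1 at 0. The part of the finer clusters and of these markers in the Igf1 difference was not tested.

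Igf1 lay lower at 20 weeks in clusters 0, 3 and 9 and in tenocyte-like cells as well, without passing edgeR's test. In cluster 0 it was at 567 and 423 CPM at 20 weeks, against 2460 CPM at 2 weeks (log2 -2.28, SE 0.74, edgeR adjusted p = 0.0782, DESeq2 0.0208). No member was called by edgeR in cluster 0, where 2.36% of 5137 genes were (DESeq2, 1.62%). The synovial lining list summed there to 3608 and 5360 CPM at 20 weeks, with 2 and 0 genes at 0, against 346 CPM at 2 weeks, with none at 0, and its part was not tested. In tenocyte-like cells it was at 211 and 294 CPM at 20 weeks, against 491 CPM at 2 weeks (log2 -1.16, SE 0.66, edgeR adjusted p = 0.678). In cluster 8, the Tnmd-led tenocyte-like cluster, 20-week replicate 2 had 509 CPM and the 2-week library 829 CPM, and replicate 1 had too few cells there. Thinned to 1000 UMIs per cell, a UMI of Igf1 was found in 20.8% and 29.1% of progenitor-like cells at 20 weeks, against 59.9% at 2 weeks (41.6%, 64.1% and 87.6% unthinned). In the 69 B-lineage-like cells of 20-week replicate 2, which should lack the gene, the thinned share was 0 of 69 (1.45% unthinned), at a median depth of 4514 UMIs against 6154 in progenitor-like cells of that library.

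Igf2 is not one of the 9 genes but sets the ligand total. It had 18.5 and 17.5 CPM over all 20-week cells, against 1167 CPM at 2 weeks, and fell (log2 -5.99, SE 0.68, edgeR adjusted p = 0.00427). At 2 weeks it was highest in cluster 3 (3577 CPM) and cluster 0 (2799 CPM). Within clusters 0, 1, 3 and 9 it was again called lower by edgeR, with log2 changes of -4.94, -6.93, -6.41 and -7.28. DESeq2 also called it in clusters 0, 1 and 9, but not in cluster 3 (DESeq2 adjusted p = 0.171). There it had 146 and 11.1 CPM at 20 weeks.

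Igf1r, the receptor gene, passed no test of age. Its level was 52.1 and 64.7 CPM over all 20-week cells and 57.5 CPM at 2 weeks, so the 2-week value lay between the replicates (log2 0.03, SE 0.44, edgeR adjusted p = 0.999). In tenocyte-like cells it was at 49.4 and 34.3 CPM at 20 weeks, against 23.3 CPM at 2 weeks (log2 0.71, SE 0.56, edgeR adjusted p = 0.827), in progenitor-like cells at 46.8 and 82.1 against 66.0 CPM, and in mural-like cells at 75.3 and 93.7 against 111 CPM. At 2 weeks it was highest in the contractile mural-like cluster 4 (121 CPM) and in cluster 16, led by Fmo2 and Mmp3 (91.9 CPM), whose intervals overlapped. It was near 0 in muscle fibre-like cells (3.41 CPM) and B-lineage-like cells (5.96 CPM) of 20-week replicate 2.

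**Figure D2:**
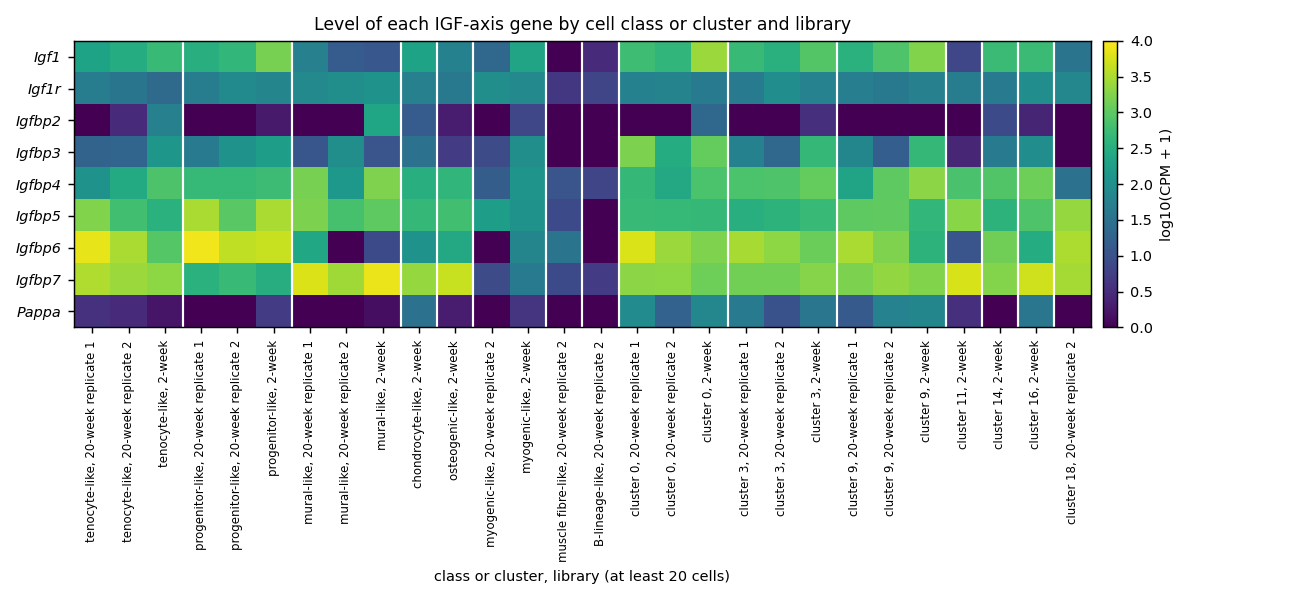
Level of the 9 genes (rows) in each cell class or unnamed cluster and library with at least 20 cells (columns, 20-week libraries left of the 2-week one), as log10(CPM + 1) in colour. Igfbp6 is bright in tenocyte-like and progenitor-like columns. It is dark in the mural-like columns of 20-week replicate 2 and the 2-week library, and dim in that of 20-week replicate 1 (247 CPM). Igfbp7 is bright in mural-like columns and dim in progenitor-like ones. Igfbp2 is dark in every 20-week column but that of tenocyte-like cells of replicate 2, which rests on 1 UMI.

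Igfbp6, whose product prefers IGF-2, and Igfbp7, whose product binds IGFs weakly and is part of the vessel wall matrix, were ordered in opposite ways in progenitor-like and mural-like cells. Igfbp6 was at 8286 and 4187 CPM in 20-week progenitor-like cells and 4566 CPM at 2 weeks. In mural-like cells it had 247 CPM in 20-week replicate 1 (23 UMIs), 0 UMIs in replicate 2 and 7.0 CPM at 2 weeks. Igfbp7 was at 6259 and 2718 CPM in 20-week mural-like cells and 7736 CPM at 2 weeks, against 362 and 493 CPM in 20-week progenitor-like cells and 314 CPM at 2 weeks. Igfbp6 was higher in progenitor-like than in mural-like cells, and Igfbp7 higher in mural-like than in progenitor-like cells, in each of the 3 libraries. Igfbp7 was also high in tenocyte-like cells, at 3355 and 2494 CPM at 20 weeks and 2098 CPM at 2 weeks. In 20-week replicate 2 the tenocyte-like cluster 6 had the highest cluster level (3085 CPM), and the mural-like cluster 7 had 2544 CPM. Among cluster sums with at least 20 cells, Igfbp6 was the most abundant binding protein in 12 of 17 at 20 weeks and in 2 of 15 at 2 weeks, and Igfbp7 in 3 of 17 and in 9 of 15. The clusters with enough cells differed between the ages, so these counts describe the libraries and were not tested.

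In tenocyte-like cells the make-up of the binding proteins differed with age. Igfbp6 was 58.0% and 47.7% of the Igfbp2 to Igfbp7 UMIs at 20 weeks, against 20.4% at 2 weeks. Igfbp7 was 27.0% and 38.4% at 20 weeks, against 49.1% at 2 weeks, and Igfbp4 was 0.861% and 4.23%, against 17.9%. In cluster 8 alone Igfbp7 lay the other way, at 39.8% in 20-week replicate 2 and 31.2% at 2 weeks. Igfbp6 was 46.3% there, against 27.6%, and Igfbp4 was 7.22%, against 31.2%. The part of the clusters in the make-up of the class was not tested. In progenitor-like cells Igfbp6 was already 52.4% at 2 weeks, and was 67.3% and 67.3% at 20 weeks. In mural-like cells Igfbp7 was 64.7% and 74.6% at 20 weeks and 72.4% at 2 weeks.

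**Figure D3:**
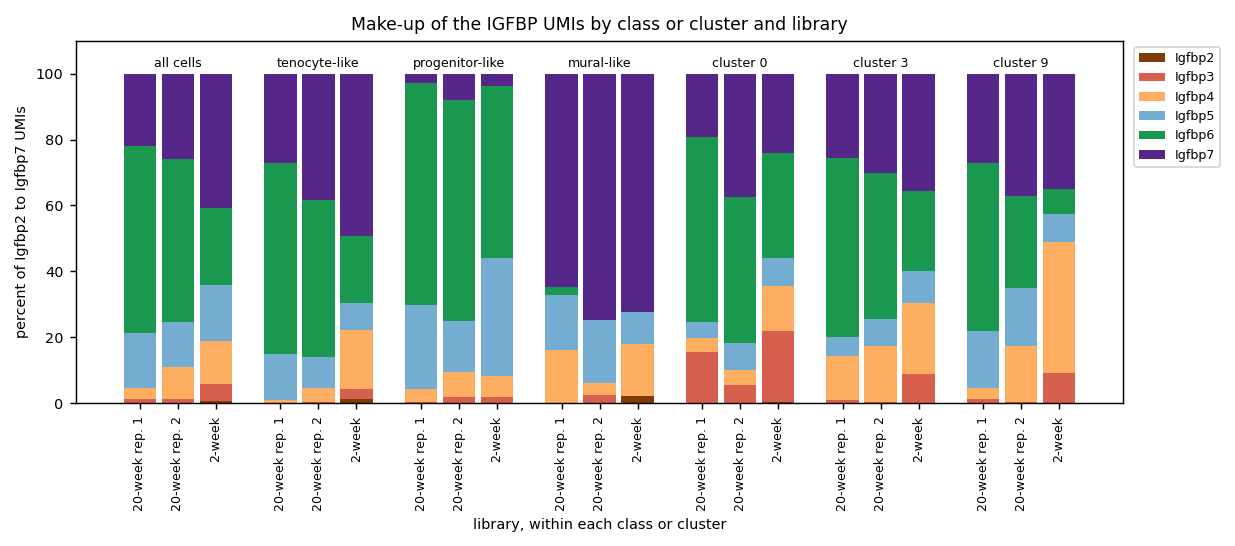
Percent of Igfbp2 to Igfbp7 UMIs that each gene gave (stacked bars, y axis), by library within all cells, 3 classes and 3 unnamed clusters (x axis, 20-week libraries left of the 2-week one). In tenocyte-like cells the Igfbp6 part is 58.0% and 47.7% at 20 weeks and 20.4% at 2 weeks.

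Igfbp6 had 7202 and 3092 CPM in tenocyte-like cells at 20 weeks, against 869 CPM at 2 weeks. Both 20-week replicates were above the 2-week library. The log2 change was 2.45 (SE 0.97), with an edgeR adjusted p of 0.454 (DESeq2 0.0745), so it did not pass. In cluster 8 alone it had 1879 CPM in 20-week replicate 2 and 808 CPM at 2 weeks. Values on the same side were seen in cluster 0 (5923 and 2489 CPM, against 1692), cluster 3 (3025 and 2094 CPM, against 1257) and cluster 9 (3056 and 1681 CPM, against 381), none of which passed edgeR's test. After thinning, 90.5% and 77.3% of tenocyte-like cells at 20 weeks had a UMI of Igfbp6, against 45.0% at 2 weeks (96.3%, 92.4% and 83.3% unthinned), while the 69 B-lineage-like cells of replicate 2 had 0. In 20-week replicate 1 the level was higher than in replicate 2 in each class and cluster that both could be measured in, including the 247 CPM of mural-like cells, and the part of free RNA in this was not tested.

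Igfbp7 passed no test in tenocyte-like cells, where it was at 3355 and 2494 CPM at 20 weeks and 2098 CPM at 2 weeks (log2 0.33, SE 0.77, edgeR adjusted p = 0.962). At 2 weeks it was highest in cluster 4 (8517 CPM), then in cluster 11, led by Fabp4, Nrgn and Casq2 (5773 CPM), and was also high in osteogenic-like (4575 CPM) and chondrocyte-like cells (2329 CPM). At 20 weeks tenocyte-like cells gave 59.1% of the Igfbp7 UMIs of replicate 1 and 17.0% of those of replicate 2, against 14.2% at 2 weeks. Those cells were 39.9%, 11.8% and 14.0% of the cells of the same libraries.

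Igfbp5, whose product binds to extracellular matrix, was led by progenitor-like cells at 2 weeks. Cluster 10, led by Akr1c18 and Dpp4, had 5539 CPM and cluster 1 had 2294 CPM. In progenitor-like cells as a whole the level was 3141 and 960 CPM at 20 weeks and 3111 CPM at 2 weeks. Cluster 10 held 19 and 1 of these cells at 20 weeks and 195 at 2 weeks. Cluster 1 alone had 2158 and 950 CPM at 20 weeks. The part of cluster 10 in the class level, the gap between replicates and the class comparison of Igfbp5 below was not tested. Tenocyte-like cells had 1733 and 607 CPM at 20 weeks, against 353 CPM at 2 weeks (log2 1.63, SE 0.99, edgeR adjusted p = 0.715). Replicate 1 was the higher of the 20-week replicates in both classes.

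Igfbp4, whose product is a substrate of pappalysin-1, lay lower at 20 weeks in tenocyte-like cells, without passing edgeR's test. It had 107 and 274 CPM at 20 weeks, against 766 CPM at 2 weeks (log2 -2.26, SE 0.73, edgeR adjusted p = 0.338, DESeq2 0.106). In progenitor-like cells it was at 476 and 475 CPM at 20 weeks and 558 CPM at 2 weeks (log2 -0.22, SE 0.51, edgeR adjusted p = 0.966). Cluster 1 alone had 266 and 473 CPM at 20 weeks, against 605 CPM at 2 weeks (log2 -0.70, SE 0.60). It gave 94 of the 193 Igfbp4 UMIs of progenitor-like cells in replicate 1, and cluster 10, with 19 cells, gave the others. The part of cluster 10 in the class level and in the class comparison of Igfbp4 below was not tested. At 2 weeks the highest levels were in cluster 9 (2004 CPM) and cluster 4 (1998 CPM), with overlapping intervals. Mural-like cells had 1538 CPM in 20-week replicate 1, 134 CPM in replicate 2 (10 UMIs) and 1684 CPM at 2 weeks. The contractile cluster 4 gave 17 of the mural-like cells of replicate 1 and 1 of those of replicate 2, and its part in the gap between the replicates was not tested.

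The age difference itself was compared between progenitor-like and tenocyte-like cells with the library as a block, and 2 of 8 members tested passed edgeR's threshold, where 1.97% of 10075 genes did. For Igfbp4 the change was more positive in progenitor-like than in tenocyte-like cells by 2.13 on the log2 scale (SE 0.61, edgeR adjusted p = 0.0301). For Igfbp5 it was more negative in progenitor-like cells (log2 -2.16, SE 0.65, edgeR adjusted p = 0.0463). Neither passed with DESeq2 (0.620 and 0.216), which called 0.42% of genes, nor after sums were thinned to the smallest library (edgeR adjusted p = 0.310 and 0.223), and Igfbp5 did not pass with no filter on low counts (0.0744). Without replicate 1 the Igfbp4 difference was 1.51, and without replicate 2 it was 2.78. For Igfbp3 and Igfbp6 the differences were 1.75 (SE 0.58, edgeR adjusted p = 0.109) and -1.85 (SE 0.68, edgeR adjusted p = 0.199). Other cell types' markers moved with age in the tenocyte-like class: the synovial lining list, none of it at 0, summed to 9531 and 5755 CPM at 20 weeks, against 718 CPM at 2 weeks, and an 8-gene chondrocyte list to 254 and 159 CPM, with 3 of its genes at 0 in each replicate, against 1295 CPM, with none at 0. An 8-gene osteogenic list summed to 873 and 127 CPM at 20 weeks, with 5 genes at 0 in each replicate, against 5.56 CPM at 2 weeks, with 4 at 0. An 8-gene mural list summed to 86.4 and 107 CPM at 20 weeks, with 3 and 1 genes at 0, against 626 CPM at 2 weeks, with 1 at 0. Their part in the tenocyte-like differences was not tested.

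**Figure D4:**
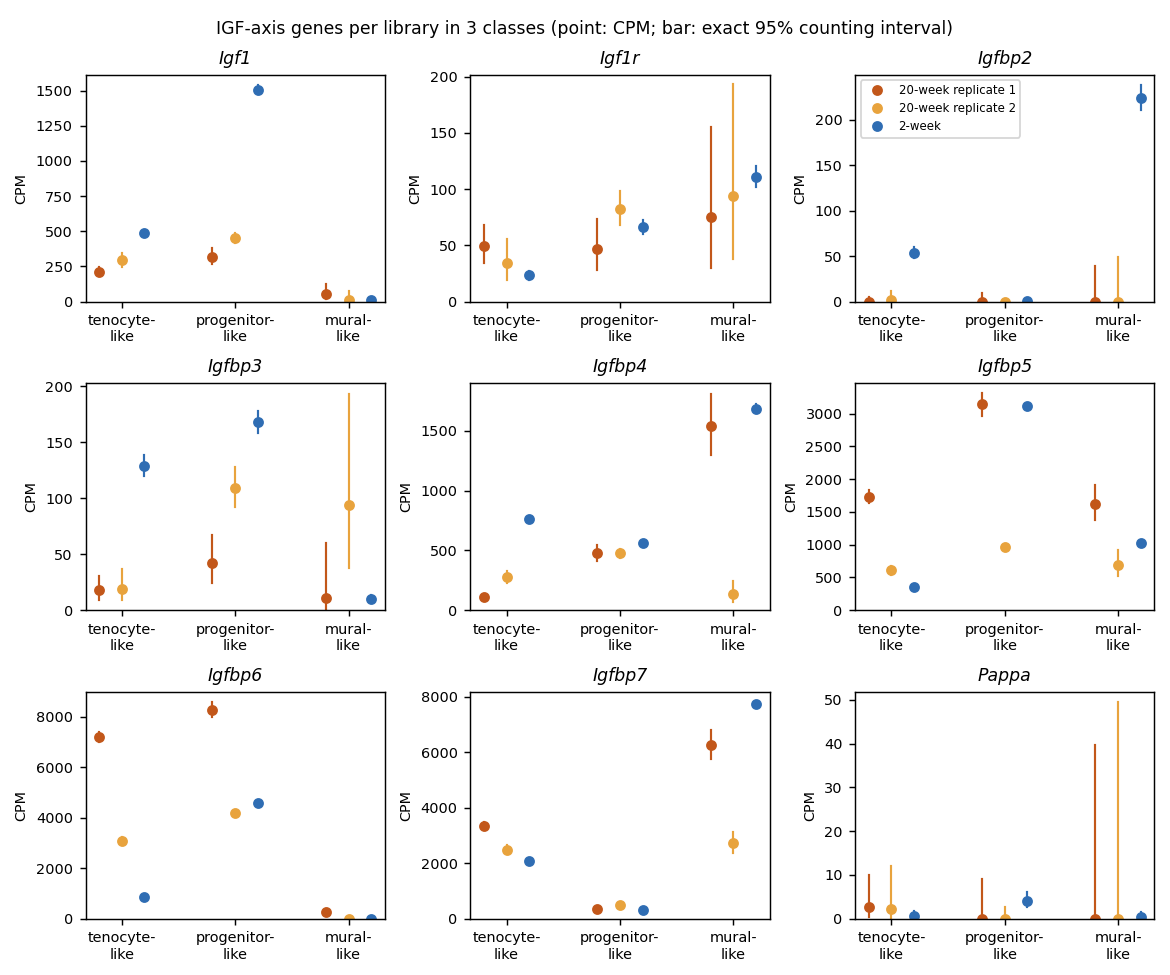
CPM (y axes, from 0) of the 9 genes in tenocyte-like, progenitor-like and mural-like cells (x axis), with a point for each library and bars for the exact 95% Poisson interval, which covers counting error only. In tenocyte-like cells Igfbp3 and Igfbp4 are below the 2-week point in both 20-week replicates, and Igfbp5 and Igfbp6 are above it.

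Igfbp3, the main carrier of IGF-1 in serum, was highest in cluster 0 per UMI. At 2 weeks that cluster had 1141 CPM, followed by clusters 9 and 3 at 468 and 453 CPM. At 20 weeks it was again the highest in each replicate, at 1637 and 304 CPM, and the 2-week value lay between the replicates (log2 -0.15, SE 0.75, edgeR adjusted p = 0.989). Progenitor-like cells nonetheless gave 51.0% of all Igfbp3 UMIs of 20-week replicate 2 (151 of 296), against 7.26% in replicate 1 and 10.1% at 2 weeks. In clusters 3 and 9 the gene fell. Cluster 3 had 56.2 and 20.5 CPM at 20 weeks, against 453 CPM at 2 weeks (log2 -4.03, SE 0.56, edgeR adjusted p = 1.59e-10, DESeq2 0.000636), the only one of 8 members tested there that was called, where 6.09% of 9930 genes were and 2.58% were called lower (DESeq2, 3.77% in either direction). Cluster 9 had 66.6 and 14.5 CPM at 20 weeks, against 468 CPM at 2 weeks (log2 -3.42, SE 0.76, edgeR adjusted p = 0.000768, DESeq2 0.124), again 1 of 8 members, where 2.43% of 5094 genes were called and 1.08% were called lower (DESeq2, 1.03% in either direction). Without replicate 2 the log2 differences were -2.91 in cluster 3 and -2.54 in cluster 9, and without replicate 1 they were -4.28 and -4.88. In cluster 9 a 4-gene adipocyte list summed to 95.2 and 43.5 CPM at 20 weeks, with 3 genes at 0 in each replicate, against 1570 CPM at 2 weeks, with none at 0. The synovial lining list summed there to 895 and 391 CPM at 20 weeks, with 2 and 3 of its 4 genes at 0, against 27.5 CPM at 2 weeks, with 1 at 0. With a finer clustering the Hmcn2-led and Smoc2-led cells of cluster 3 separated largely by age, into a cluster with 21 and 264 cells at 20 weeks and 6 at 2 weeks and a Cilp-led one with 12 and 1 cells at 20 weeks and 180 at 2 weeks. In cluster 3 the synovial lining list summed to 1575 and 1871 CPM at 20 weeks, with 2 and 1 genes at 0, against 130 CPM at 2 weeks, with 1 at 0. The 8-gene mural list summed there to 56.2 and 9.94 CPM at 20 weeks, with 5 and 4 genes at 0, against 252 CPM at 2 weeks, with none at 0. The part of these genes and finer clusters in the values of clusters 3 and 9 was not tested.

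In tenocyte-like cells Igfbp3 was at 17.8 and 19.3 CPM at 20 weeks (13 and 9 UMIs), against 129 CPM at 2 weeks, with both replicates below (log2 -2.97, SE 0.54, edgeR adjusted p = 0.107, DESeq2 0.0517). Progenitor-like cells had 41.9 and 109 CPM at 20 weeks, against 168 CPM (log2 -1.12, SE 0.54, edgeR adjusted p = 0.725). Mural-like cells had 10.8 and 93.7 CPM at 20 weeks (1 and 7 UMIs), against 10.2 CPM at 2 weeks. The mural-like cells of 20-week replicate 2 also carried 884 CPM of a 7-gene endothelial list with none at 0, against 0 CPM in replicate 1 and 4.67 CPM at 2 weeks, and 5114 CPM of the adipocyte list, which includes Fabp4, with 2 of its 4 genes at 0, against 1280 CPM in replicate 1 (3 at 0) and 275 CPM at 2 weeks (2 at 0). Their part in the mural-like values was not tested.

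**Figure D5:**
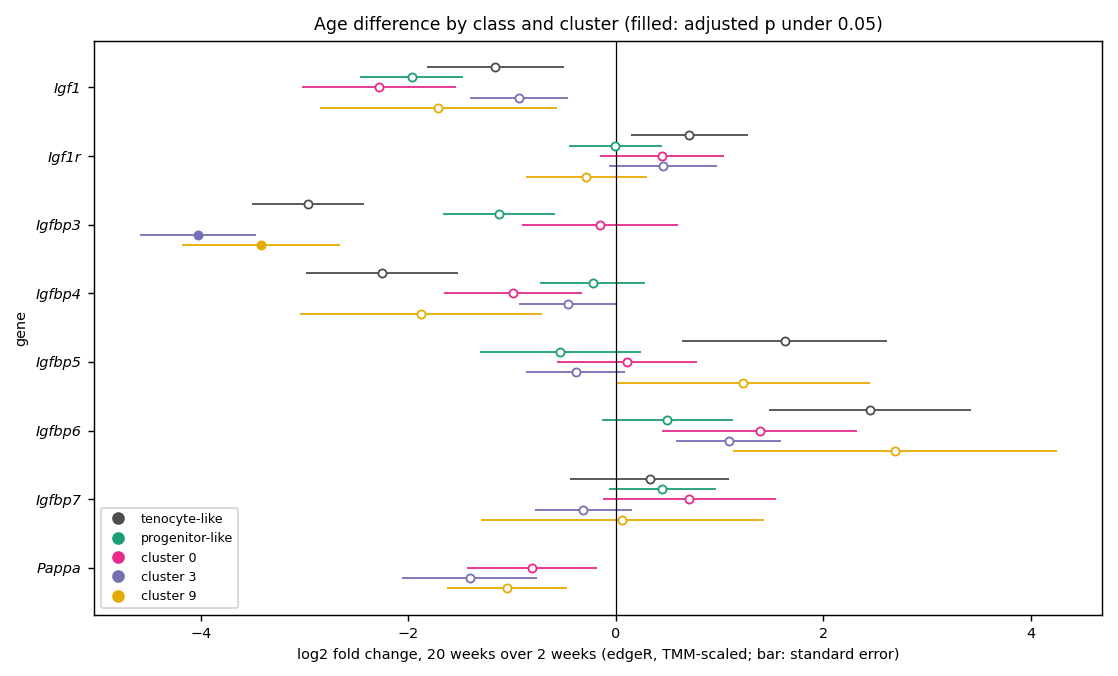
Log2 fold change of 20 weeks over 2 weeks (x axis) with its standard error for 8 genes (y axis; Igfbp2 is given in the text) in 2 classes and 3 unnamed clusters, from edgeR; filled points have an adjusted p under 0.05. Only Igfbp3 in clusters 3 and 9 is filled. Cluster 1, where edgeR called Igf1 lower, is not drawn.

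Igfbp2, a binding protein known from fetal tissue, was found nearly wholly in the 2-week library. It had 0 UMIs and 1 UMI in all cells of the 20-week replicates, against 1556 UMIs (47.7 CPM) at 2 weeks. Over all cells it fell (log2 -8.46, SE 0.75, edgeR adjusted p = 0.00169), the only one of the 9 called there by edgeR, where 0.549% of 13304 genes were and 0.398% were called lower. With stricter cell filters the log2 change of -8.36 did not pass (edgeR adjusted p = 0.100), and in the other 3 settings tried it did. DESeq2 also called Igf1 in all cells (adjusted p = 0.0297), where it called 1.52% of genes. The 2-week library had 348.9 times the CPM of the pooled 20-week libraries, with an exact 95% counting interval of 62.5 to 13790.

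At 2 weeks 67.9% of the Igfbp2 UMIs came from mural-like cells and 19.8% from tenocyte-like cells. Cluster 4, the contractile mural-like cluster led by Actg2, Tagln and Cnn1, was the highest at 279 CPM. It was followed by the tenocyte-like clusters 8 (81.7 CPM) and 5 (45.5 CPM), whereas the Rgs5-led mural-like cluster 7 had 21.0 CPM. Within cluster 4 the gene was uneven between cells: after thinning, 15.3% of its 458 cells had a UMI of Igfbp2, against 83.6% for Igfbp4 and 99.8% for Igfbp7 (35.4%, 99.3% and 99.8% unthinned).

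Mural-like cells had 0 Igfbp2 UMIs in both 20-week replicates, where the 2-week level of each of their clusters would give 16.3 UMIs in all at the 20-week depth. By counting error alone that is at least 5.42-fold lower, with 3 counts over both replicates in place of 0. The bound is taken cluster by cluster because cluster 4 held 17 and 1 of the mural-like cells at 20 weeks and 458 at 2 weeks. It does not cover the unevenness of the gene between cells of cluster 4, nor differences between libraries. However, edgeR's adjusted p was 0.0752, no member of 6 tested in mural-like cells was called, and 0.175% of 2280 genes were. The 17 cells of cluster 4 in replicate 1 had 0 Igfbp2 UMIs, where 13.0 of these were due. In tenocyte-like cells 1 UMI stood against 308, a ratio of 63.9 (2 weeks over 20 weeks; counting interval 11.4 to 2534), with an edgeR adjusted p of 0.0647 and a DESeq2 one of 0.0422. Unlike the mural-like value, this ratio was not taken cluster by cluster. At 2 weeks clusters 5 and 8 gave 199 and 108 of these UMIs. Cluster 6, which held most tenocyte-like cells at 20 weeks, had 18 cells at 2 weeks. In tenocyte-like cells edgeR called 0 of 7937 genes (0%), with 786 at an unadjusted p under 0.05, and DESeq2 called 158 (1.99%). In sums over all cells, fewer cells of a type and less RNA per cell cannot be told apart.

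Pappa was a rare transcript, found mostly in unnamed clusters. It had 10.6 and 7.59 CPM over all 20-week cells (19 and 42 UMIs), against 22.0 CPM at 2 weeks (log2 -1.26, SE 0.54, edgeR adjusted p = 0.487). Clusters without a name gave 89.5% and 97.6% of its UMIs at 20 weeks and 82.7% at 2 weeks. At 2 weeks clusters 0 and 9 had 71.3 and 66.6 CPM, which overlapped, and at 20 weeks cluster 0 had 83.7 and 17.1 CPM and cluster 9 had 12.7 and 58.0 CPM. Chondrocyte-like cells of the 2-week library had 30.4 CPM. Progenitor-like cells held 0 UMIs in both 20-week replicates, where the 2-week level would give 7.33, and mural-like cells held 0, 0 and 2 UMIs. Igfbp4, whose product is a substrate of pappalysin-1, shared cluster 9 among its highest 2-week levels but had 724 CPM in cluster 0.

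The wider IGF pathway list of 69 genes, chosen with earlier results known, gave few calls. Over all cells 62 were tested, 0 rose and 2 fell (Igf2 and Igfbp2), where 0.549% of all genes were called and 0.398% called lower. The median log2 change of the 62 was -0.04, beside 0.04 over all 13304 genes. In progenitor-like cells 1 of 54 fell (Igf2), where 0.183% of genes were called, 0.132% lower, and 0 of 7 members (DESeq2, 0.818%, and Igf1). In tenocyte-like cells 0 of 49 and in mural-like cells 0 of 19 were called, where 0% and 0.175% of all genes were. In the Rgs5-led cluster 7, 0 of 14 were, with 0 of 4 members, where 0.321% of genes were called.

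Cluster 3 held the most calls, 8 of 56 tested, 4 in each direction, where 3.51% of genes were called higher and 2.58% lower, with a median of -0.03, beside -0.02 over all genes. These calls too compare finer clusters and marker levels that differ by age, as given beside Igfbp3. Irs2, an insulin receptor substrate, rose to 112 and 121 CPM at 20 weeks, against 27.0 CPM at 2 weeks (log2 2.20, SE 0.57, edgeR adjusted p = 0.00392). Socs3, a feedback inhibitor of cytokine and growth hormone signalling, rose to 720 and 1140 CPM, against 116 CPM (log2 3.09, SE 0.56, edgeR adjusted p = 3.77e-06). Htra3, a secreted serine protease, rose by 1.97 on the log2 scale (edgeR adjusted p = 0.00531), and Adamts1, a secreted metalloprotease, by 2.05 (edgeR adjusted p = 0.00472). Grb10, an imprinted adaptor that restrains receptor signalling, fell by 1.56 (edgeR adjusted p = 0.0288), and Adam12, a metalloprotease that cuts binding proteins, had 1 and 0 UMIs at 20 weeks, against 46 UMIs (edgeR adjusted p = 2.84e-05). Of these 6, DESeq2 also called Socs3 (6.53e-05) and Htra3 (0.0473). Irs2 also rose in cluster 1, to 53.7 and 70.1 CPM at 20 weeks, against 18.7 CPM at 2 weeks (edgeR adjusted p = 0.0243, DESeq2 0.937).

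The other receptor and signalling genes did not pass in all cells. Igf2r, which clears IGF-2, had 61.1 and 105 CPM at 20 weeks and 100.5 CPM at 2 weeks, and the insulin receptor gene Insr had 10.6 and 16.8 CPM and 17.6 CPM. Irs1 had 25.2 and 26.9 CPM at 20 weeks and 29.0 CPM at 2 weeks, and Irs2 had 77.9 and 88.0 CPM, against 34.2 CPM (log2 1.30, SE 0.48, edgeR adjusted p = 0.376). Ghr, the growth hormone receptor gene, had 31.9 and 62.2 CPM at 20 weeks and 53.7 CPM at 2 weeks. The stanniocalcin genes Stc1 and Stc2, whose products inhibit pappalysins, had few UMIs. Stc1 had 2.24 and 0 CPM at 20 weeks (4 and 0 UMIs), against 2.64 CPM at 2 weeks (86 UMIs). Stc2 had 1.68 and 0.723 CPM at 20 weeks (3 and 4 UMIs), against 5.79 CPM at 2 weeks (189 UMIs). Htra1, a secreted serine protease, had 759 and 195 CPM at 20 weeks and 540 CPM at 2 weeks.

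The genes most like each member were found by Pearson correlation of log2(CPM + 10) over 32 cluster sums with at least 20 cells, among 7598 genes outside the pathway list. The sums share libraries and depth, so the values are a description. Igfbp6 was closest to Dcn (r = 0.94), Dnm1 (0.92) and Clec3b (0.89), and Igf1 to Mmp2 (0.89), Olfml1 (0.88) and Bicc1 (0.86). Igfbp5 was closest to Cavin1 (0.91), Cavin3 (0.83) and Atl3 (0.81), and Igfbp7 to Ndufa4l2 (0.83), Parva (0.83) and Marveld1 (0.82). Igfbp4 followed Calu (0.84), Ndn (0.83) and Serpinh1 (0.82), and Igfbp3 followed Prlr (0.75), Kctd12 (0.68) and Ndn (0.67). Igfbp2 was closest to Col13a1 (0.80), Unc119 (0.76) and Sema3f (0.74), Igf1r to Lnpep (0.81), Rhoj (0.78) and Reep3 (0.76), and Pappa to Gdf10 (0.82), Sfrp1 (0.77) and Slc1a3 (0.76).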

How the data were processed

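Droplet single-cell RNA-seq was done on sorted patellar tendon cells. The deposited matrices hold UMI counts per feature and barcode, not normalized and not pooled. The submitters' processing notes name Cell Ranger 6.1.2 and the mm10 build for the authors' processing. The annotation and counting settings are not given in the sources used here. Barcodes under 500 genes or 1000 UMIs, or with over 10% of UMIs from mitochondrial genes, were left out. A scrublet-type score was computed, and the highest-scoring barcodes were removed at 0.8% per 1000 barcodes (3, 8 and 197 in 20-week replicates 1 and 2 and the 2-week library). The libraries deposited hold 715, 1169 and 5654 barcodes. Cells were clustered on 2000 variable genes (scanpy 1.11.5, per-library ranking), 30 principal components, 15 neighbours and the Leiden method at resolution 0.5 with seed 0. The 9 genes, Igf2 and cell cycle, dissociation, sex-linked, mitochondrial, ribosomal, haemoglobin and transgene features were left out. Names came from 16 marker lists: a cluster needed at least 2 markers of 1 list in its 10 genes of highest fold, and at least 3 detected.

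UMI counts were summed per library and class with at least 20 cells each and tested with edgeR 4.0.16's quasi-likelihood test (TMM, filterByExpr, Benjamini-Hochberg threshold 0.05) over all genes. DESeq2 1.42.0 was the alternative. Each age fit had 1 residual degree of freedom, and the single 2-week sum is taken to vary as the 20-week sums do. Standard errors are the log2 change over the root of the F statistic, or Wald errors where F is close to 0. The fits were tested on simulated data. Intervals of CPM are exact Poisson and those of ratios exact binomial, at 95%, and cover counting error only, as does the floor of 3 counts. CPM in the text is not scaled by TMM.

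The members and gene lists were chosen with earlier results of these data known. A first clustering, on another ranking of variable genes, left 36 and 20 progenitor-like cells at 20 weeks and was replaced after marker genes and cluster sizes of both had been seen. Levels and age tests of the members were computed only on the second. The doublet rule and the fits within clusters were also set with the data in view. Genes named are the 9 members, pathway genes past the threshold (at most 10 per comparison), 9 fixed for their role, and the 3 genes most like each member.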

Additional observations from a re-analysis of the deposited data

Results flagged for a closer look

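For 3 genes the age difference itself differed between progenitor-like and tenocyte-like cells in edgeR's test of that difference, with the library as a block. Each value is the log2 change of 20 weeks over 2 weeks in progenitor-like cells minus that in tenocyte-like cells. Igfbp4 had 2.13 (adjusted p = 0.0301), Adamts1 had 1.88 (adjusted p = 0.0375) and Igfbp5 had -2.16 (adjusted p = 0.0463). Adamts1 was at 96.1 and 159 CPM in 20-week progenitor-like cells and 94.7 CPM at 2 weeks, and at 27.4 and 27.9 CPM in 20-week tenocyte-like cells, against 67.0 CPM at 2 weeks. These were 3 of 56 pathway genes tested, and edgeR called 1.97% of all 10075 genes. Igfbp4 and Igfbp5 did not pass after sums were thinned to the smallest library. DESeq2 called none of the 3, and it called 0.42% of the genes to which it gave an adjusted p.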

How the results depend on the processing

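Counts of called genes moved with the processing, with 1 residual degree of freedom in each age fit. Over all cells 73 genes were called, against 186 with DESeq2, 660 with no filter on low counts, 45 with sums thinned to the smallest library and 0 with stricter cell filters (at least 1000 genes, at most 5% mitochondrial UMIs). In tenocyte-like cells the count was 0, against 158, 433, 76 and 650 under the same 4 settings. In progenitor-like cells it was 18, against 79, 0, 136 and 194, with 0 at resolution 1.0 and 343 with IGF genes kept for clustering. In mural-like cells it was 4, against 21 with no filter and 0 when thinned. For the difference of the age effect it was 198, against 21 with DESeq2, 15 when thinned and 509 with stricter cell filters. Within clusters 0, 1, 3, 7 and 9, chosen after seeing the data, edgeR called 121, 345, 605, 6 and 124 genes and DESeq2 51, 89, 113, 2 and 29. Directions reversed for Igf1r in all cells (-0.0189 with no filter, -0.000369 with stricter filters) and in progenitor-like cells (0.161 thinned, 0.0923 with stricter filters, 0.0343 with IGF genes kept), Igfbp4 in progenitor-like cells (0.0181 with stricter filters), Igfbp5 in mural-like cells (-0.219 with no filter) and the class difference of Igfbp3 (-1.19 with stricter filters). With stricter filters Igfbp2 in all cells kept its direction (-8.36) and lost its call (adjusted p = 0.100). The highest of the 3 classes for each member and library was the same in 21 of 27 cases with IGF genes kept, 27 at resolution 1.0, 19 with stricter filters and 24 with every cell thinned to 1000 UMIs. These orders include classes under 20 cells. Tenocyte-like cells of 20-week replicate 1 numbered 13 with IGF genes kept. Mural-like cells numbered 16 and 10 in 20-week replicates 1 and 2 with stricter filters. The cause of the shifts in counts, directions and orders was not tested.

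Leaving out a 20-week replicate leaves 1 library against 1 and gives no test. Of 146 such member values, 113 moved by less than 1 SE. The SE rests in part on the gap between the same 2 replicates, so this count does not measure stability. Not run, because a library held under 20 cells, were tenocyte-like cells and the class difference with IGF genes kept, and mural-like cells with stricter filters. No paired analysis was possible because the 2-week group has 1 library. Depth limits Igfbp2, Igfbp3 and Pappa at 20 weeks and all mural-like values there.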
